A study of Mus musculus with 24 samples.

Results

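The genes described here are 9 genes that mark GABA-releasing interneurons of the mouse brain: Gad1, Gad2, Slc32a1, Pvalb, Calb1, Calb2, Sst, Vip and Npy. They are the rows of the brain expression table whose Ensembl identifiers map to these symbols, 9 of 55469 genes. All 9 passed the level required for testing, a mean normalised count of at least 10 over the brain samples, as did 19228 genes in all. A normalised count is an estimated number of reads for a gene, divided by a size factor of its sample so that samples of unequal depth can be compared.

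RNA was sequenced from brain and liver of male mice on a C57BL/6N background to compare wild-type (WT) animals with animals lacking a single gene for the phenylalanine transfer RNA. The 4 genotypes were WT and the homozygous lines tRNA-Phe-1-1-/-, then tRNA-Phe-2-1-/- and lastly tRNA-Phe-3-1-/-, each with 3 replicates (A, B and C) per tissue, 12 brain and 12 liver samples. The mice were 10 weeks old, WT mice were matched for age and litter, each line came from a single CRISPR/Cas9 guide injected into embryos, and the deletions were not limited to a cell type. By the study's methods the RNA came from separate mice, and the sources do not say which part of each brain was taken.

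GABA is the main inhibitory transmitter of the brain. Glutamate decarboxylases make it and a vesicular transporter packs it into synaptic vesicles, so these genes are used by all GABA neurons, including the projection neurons of the striatum and the Purkinje cells of the cerebellum. Parvalbumin, somatostatin and VIP divide cortical interneurons into classes, and calbindin, calretinin and parvalbumin are EF-hand proteins that bind calcium. A tRNA-Phe reads the 2 phenylalanine codons, TTT and TTC in the DNA.

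The products differ widely in phenylalanine. Calb1 (calbindin) had 14 phenylalanines in 261 residues (5.36%) and Calb2 (calretinin) 16 in 271 (5.90%), against a median share of 3.60% in 14588 proteins of at least 100 residues whose genes were tested. A lower share than that of calbindin was found in 85.8% of those proteins, and a lower share than that of calretinin in 91.0%. Parvalbumin, with 8 in 110 residues (7.27%, above 97.3% of proteins), and the vesicular transporter Slc32a1, with 33 in 525 (6.29%, above 93.5%), were richer than both calbindins. Vip, a preproprotein of 171 residues with 9 phenylalanines, stood at 5.26%, Gad1 at 4.72%, Gad2 at 4.44% and Sst at 4.31%. The Npy precursor, 97 residues long, held 0. By this measure 2 members, Pvalb and Slc32a1, stood above the calbindins, and Npy stood apart from all the others.

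**Figure D1:**
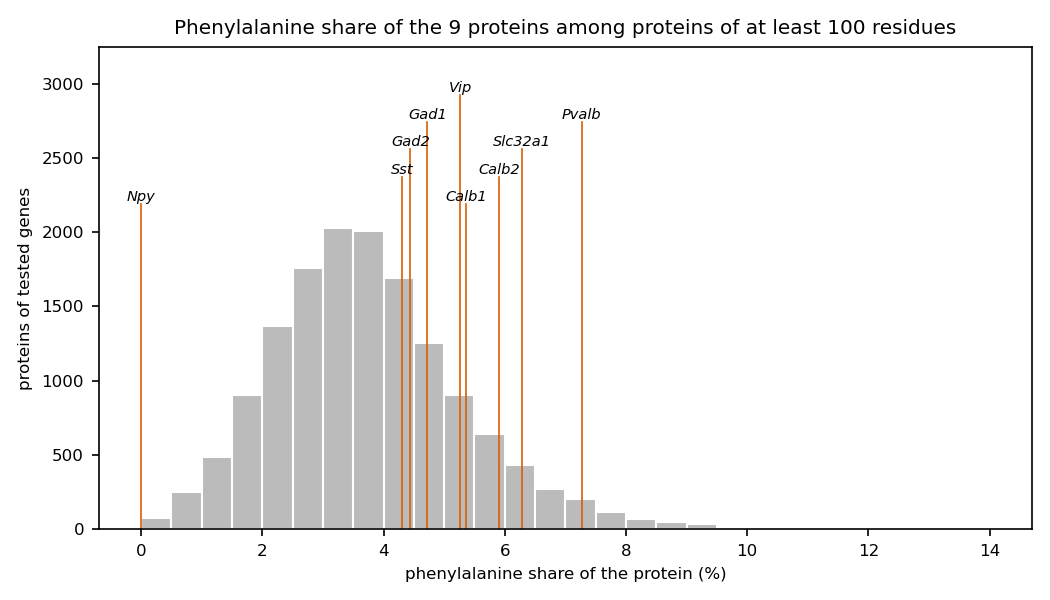
Grey bars count proteins of tested genes by phenylalanine share (x axis, percent of residues, in steps of 0.5), and orange lines mark the 9 proteins. Pvalb is the farthest right of the 9 at 7.27%, Npy stands at 0 and the other 7 lie between 4.31% and 6.29%.

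The calbindins are 60.8% identical as proteins over 260 aligned residues and share 12 phenylalanine positions. Codon use was counted in the coding sequences of GENCODE vM39 transcripts. Over the whole coding sequence Calb1 used TTT and TTC 7 times each, while Calb2 used TTT 6 times and TTC 10 times. Slc32a1 used TTC for 29 of its 33 phenylalanines and Pvalb for 7 of its 8. Gad2 was the member with more TTT than TTC codons, 15 against 11.

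In WT brains the members covered a wide range of levels per transcript length. Npy, a peptide transmitter, and Gad1 led with 2643 ± 353 and 2345 ± 352 normalised counts per kilobase (SD, n = 3), levels that did not differ beyond their spread. Next came Sst at 1004 ± 51.7 and Calb1 at 941 ± 86.3 per kilobase, again within each other's spread. Vip followed at 699 ± 73.9, then Pvalb at 542 ± 116 and Gad2 at 542 ± 40.7, of which Pvalb was within the spread of both others. Slc32a1 at 339 ± 36.1 and Calb2 at 299 ± 192 per kilobase were the lowest and did not differ beyond their spread. In the livers the members were at or near 0, so the rest of the comparison concerns the brain. Pvalb, Sst, Vip, Npy and Calb2 had 0 reads in all 12 livers, and Gad1 had 7 reads, Gad2 1, Slc32a1 2 and Calb1 8 over the 12 together.

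The brain libraries held 30365760 to 46225360 reads, and several differed in the markers of brain regions. The summed normalised counts of 12 olfactory bulb markers were 16286 in tRNA-Phe-1-1-/- replicate A and 20640 in tRNA-Phe-3-1-/- replicate B, against 5615 to 9747 in WT. Doc2g, a gene of olfactory bulb neurons picked out after its values were seen, had 1231 and 1275 normalised counts in those libraries and 60.5 to 134 in the other 10. The 12 thalamus markers summed to 41776 in tRNA-Phe-2-1-/- replicate C and 31451 in tRNA-Phe-3-1-/- replicate C, and to 8215 to 18488 elsewhere. The latter library also stood apart in 12 hypothalamus markers, with 9734 against 96.4 to 1053 in the other 11. The 12 choroid plexus markers spread furthest, with 55489 in tRNA-Phe-2-1-/- replicate C, 29031 and 17516 in tRNA-Phe-3-1-/- replicates C and A, 13825 and 7322 in WT replicates C and A, and 304 to 757 in the other 7. Striatal markers summed to 11528 to 39175 in WT and to 71881, 71219, 70547 and 84916 in tRNA-Phe-1-1-/- replicates B and C and tRNA-Phe-2-1-/- replicates A and B. In tRNA-Phe-1-1-/- replicate A they summed to 10689, the lowest of the 12 brains. The Purkinje cell gene Pcp2, also chosen after its values were seen, had at most 96.8 normalised counts in any brain and 0 in 3 of them. The 12 Purkinje cell markers together summed to 32176 to 55851 over the 12 brains, of which Itpr1 alone gave 22265 to 48961. The 12 pan-neuronal markers, led by Map2, Snap25 and Syt1, summed to 199253 to 283502 over the 12 brains.

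By the test used here no member passed in any comparison, and 1, Pvalb, passed by another tool. The test was limma on log2(normalised count + 1) with p-values adjusted over all tested genes and a threshold of 0.05. Against WT, 0 of 9 members passed in tRNA-Phe-1-1-/-, where 1.05% of all genes passed, 0 of 9 in tRNA-Phe-2-1-/- (0% of all genes) and 0 of 9 in tRNA-Phe-3-1-/- (0% of all genes). Between the knockout lines 0 of 9 passed in tRNA-Phe-1-1-/- against tRNA-Phe-2-1-/- (background 0.53%), 0 of 9 in tRNA-Phe-1-1-/- against tRNA-Phe-3-1-/- (background 2.11%) and 0 of 9 in tRNA-Phe-2-1-/- against tRNA-Phe-3-1-/- (background 0%). The test for any difference among the 4 genotypes passed 0 of 9, and 0.634% of all genes. At an unadjusted limma p under 0.05 the counts were 1, 0 and 5 members against WT in tRNA-Phe-1-1-/-, in tRNA-Phe-2-1-/- and in tRNA-Phe-3-1-/-, then 0, 1 and 1 in the same order of knockout pairs, and 1 in the test for any difference. In these sets 3063, 1071, 2373, 2631, 3755, 1910 and 3387 of the 19228 genes had such a p. On reads recovered from the table, edgeR also passed 0 members throughout. DESeq2 passed 1 member, Pvalb, in tRNA-Phe-3-1-/- against WT, where it passed 1.93% of all genes, and Pvalb again in the test for any difference, where it passed 8.23%; it passed 0 in the other 5 comparisons.

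The 3 replicates of a group lay wholly above or below the other group for 0 to 4 members, depending on the comparison. This held for 1 of 9 members in tRNA-Phe-1-1-/- against WT (background 25.2%), 0 of 9 in tRNA-Phe-2-1-/- against WT (11.4%) and 4 of 9 in tRNA-Phe-3-1-/- against WT (16.4%). Among the knockout lines it held for 2 of 9 members between tRNA-Phe-2-1-/- and tRNA-Phe-1-1-/- (20.8%), 1 of 9 between tRNA-Phe-3-1-/- and tRNA-Phe-1-1-/- (23.5%) and 0 of 9 between tRNA-Phe-3-1-/- and tRNA-Phe-2-1-/- (12.7%). The share was above the background in tRNA-Phe-3-1-/- against WT and below it in tRNA-Phe-1-1-/- against WT, but 9 genes, of which Gad2 and Slc32a1 moved together, are few. The comparisons with WT share the same 3 WT brains and are given side by side.

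**Figure D2:**
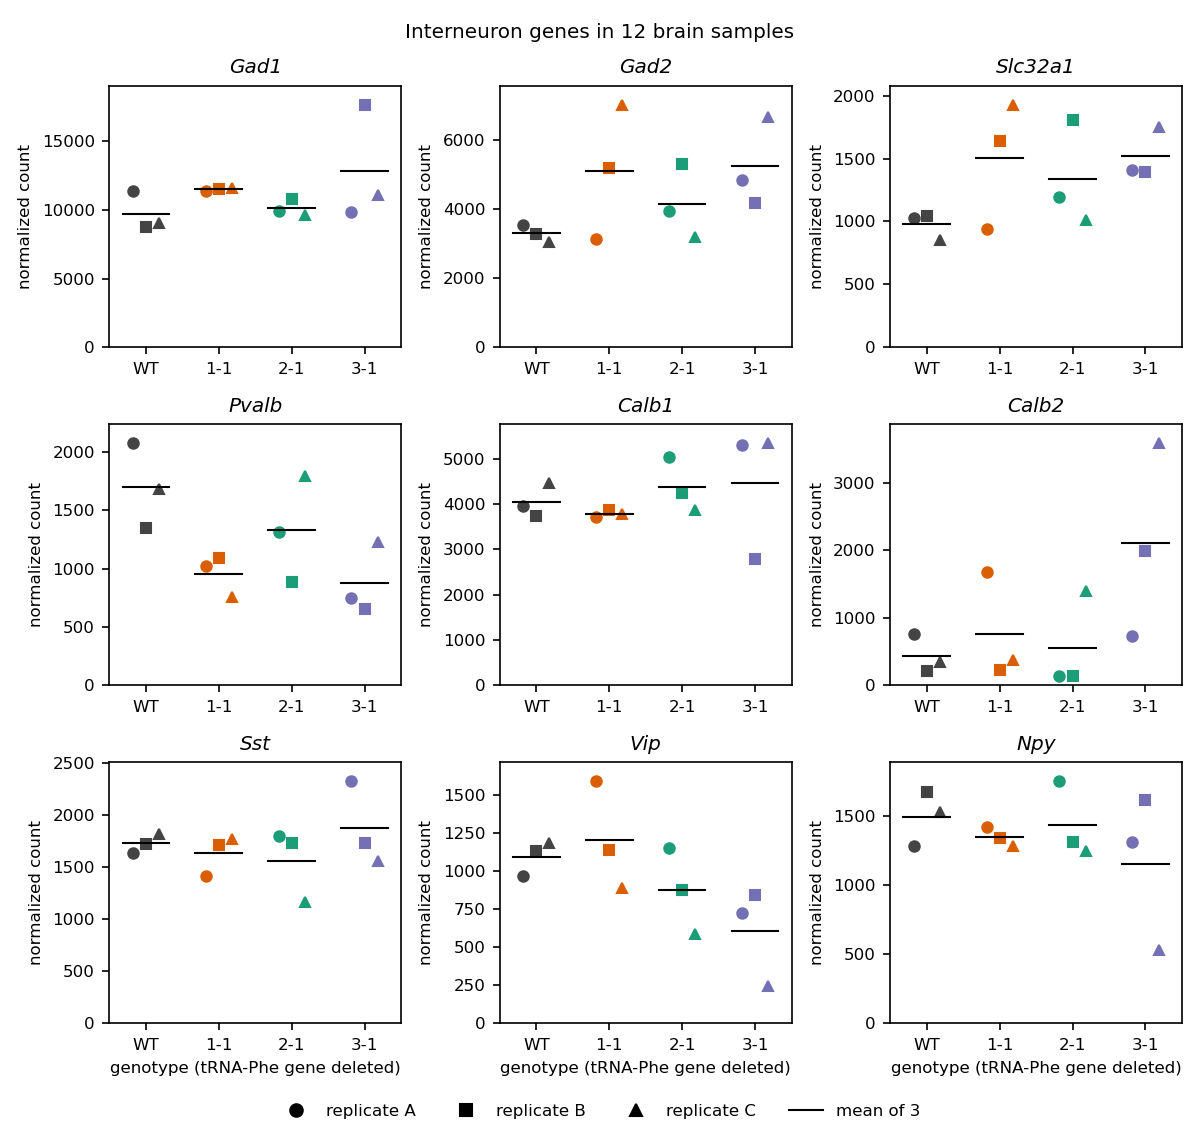
Normalised counts (y axis, from 0) of the 9 genes in every brain sample, by genotype (x axis, the deleted tRNA-Phe gene), with symbols for replicates and lines for means of 3. Pvalb in tRNA-Phe-3-1-/- and tRNA-Phe-1-1-/- lies below the WT samples, Gad2 and Slc32a1 in tRNA-Phe-3-1-/- lie above them, and Calb2 spreads from 133 to 3586.

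The first group of members makes and packs GABA. Gad1 encodes the decarboxylase GAD67, which makes most of the GABA of the cell body (ENSMUSG00000070880.10, GRCm38.p6 chr2:70561303-70602014). It had 11414, 8745 and 9051 normalised counts in WT replicates A, B and C, 11372, 11538 and 11625 in tRNA-Phe-1-1-/-, 9941, 10800 and 9651 in tRNA-Phe-2-1-/-, and 9860, 17616 and 11058 in tRNA-Phe-3-1-/-. All groups overlapped WT, and tRNA-Phe-3-1-/- replicate B, a library high in olfactory bulb markers, was the highest of the 12. Without the 4 libraries highest in olfactory bulb, thalamus or hypothalamus markers, which leaves tRNA-Phe-3-1-/- with replicate A alone, the log2 difference of that sample from WT was 0.03. With all 12 the log2 fold changes against WT were 0.25 ± 0.18 (SE), 0.07 ± 0.18 and 0.36 ± 0.18, with limma adjusted p of 0.533, 0.99 and 0.447 in tRNA-Phe-1-1-/-, in tRNA-Phe-2-1-/- and in tRNA-Phe-3-1-/-. The 3 tRNA-Phe-1-1-/- samples lay above all tRNA-Phe-2-1-/- samples, a difference of 0.19 on the log2 scale with an adjusted p of 0.695 in limma.

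Gad2 encodes the decarboxylase GAD65 (ENSMUSG00000026787.3, chr2:22621015-22693877), which sits mostly at nerve terminals. Its normalised counts were 3557, 3290 and 3061 in WT, 3141, 5188 and 7015 in tRNA-Phe-1-1-/-, 3960, 5316 and 3195 in tRNA-Phe-2-1-/-, and 4851, 4197 and 6691 in tRNA-Phe-3-1-/-. WT varied little, the knockout lines varied within themselves by up to 2.23-fold, and only the tRNA-Phe-3-1-/- samples lay wholly above WT. Mean levels followed the order WT, 3303 ± 248, tRNA-Phe-2-1-/-, 4157 ± 1074, tRNA-Phe-1-1-/-, 5114 ± 1938, and tRNA-Phe-3-1-/-, 5246 ± 1293 (SD, n = 3), in which no neighbours passed the test. The difference of tRNA-Phe-3-1-/- from WT was 0.64 ± 0.27 on the log2 scale, 1.56-fold, with a limma adjusted p of 0.376.

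Slc32a1, the vesicular GABA transporter (ENSMUSG00000037771.11, chr2:158607260-158615747), had nearly the same profile. It had 1030, 1043 and 857 normalised counts in WT, 943, 1643 and 1922 in tRNA-Phe-1-1-/-, 1194, 1807 and 1011 in tRNA-Phe-2-1-/-, and 1405, 1393 and 1754 in tRNA-Phe-3-1-/-. Again the tRNA-Phe-3-1-/- samples lay above all WT samples, while each of the other lines overlapped WT through 1 sample. The log2 fold changes against WT were 0.56 ± 0.26, 0.41 ± 0.26 and 0.63 ± 0.26, with limma adjusted p of 0.318, 0.922 and 0.355.

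Gad2 and Slc32a1 moved together from sample to sample. Over the 12 brains their log2 levels had a Pearson r of 0.963 and a Spearman rho of 0.986, each with a permutation p of 1e-05, the smallest that 100000 permutations can give, and an adjusted p of 0.00036 over the 36 pairs of members in both cases. Without the samples farthest from the median of Gad2, tRNA-Phe-1-1-/- replicate C and tRNA-Phe-3-1-/- replicate C, r was 0.974, and within genotypes, after subtraction of each group's mean, it was 0.952. The next pair was Vip and Npy, with r = 0.874, rho = 0.657 and adjusted permutation p of 0.108 and 0.412. That r was 0.59 without tRNA-Phe-1-1-/- replicate A and tRNA-Phe-3-1-/- replicate C, the highest and the lowest in Vip, and 0.925 within genotypes. Gad1 did not show the same relation with its paralog Gad2 (r = 0.286, rho = 0.517, adjusted permutation p of 0.612 and 0.412), although the proteins are 65.0% identical. Just 1 of the 36 pairs passed at an adjusted p of 0.05.

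**Figure D3:**
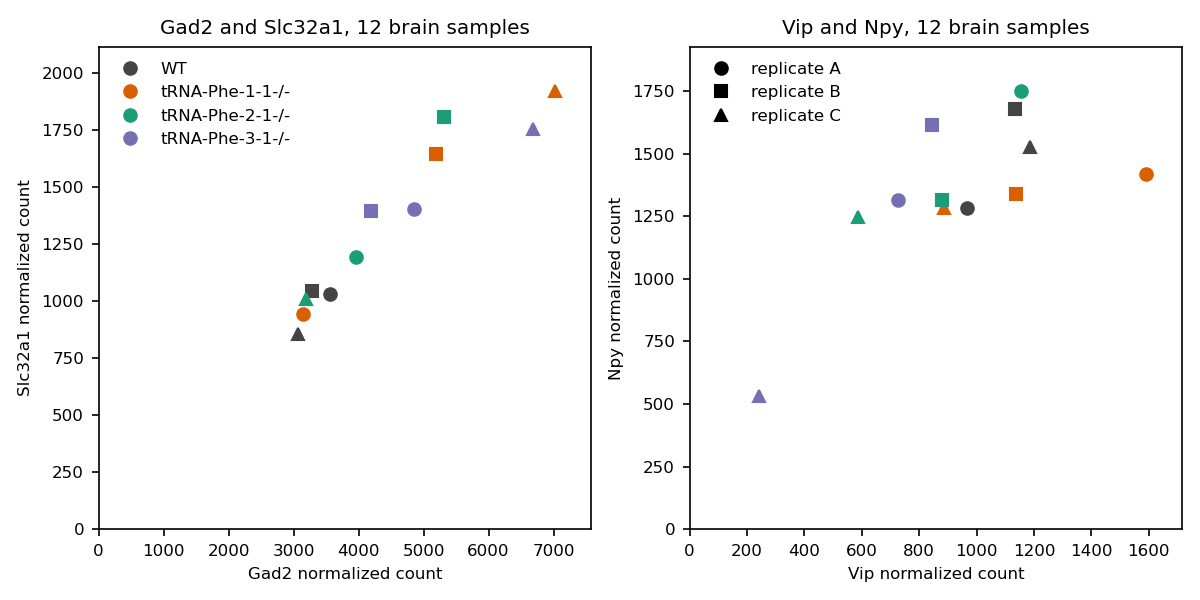
Normalised counts of Slc32a1 against Gad2 (left) and of Npy against Vip (right) in the 12 brain samples, coloured by genotype, with symbols for replicates and all axes from 0. The left points follow one line across genotypes (r = 0.963), whereas on the right the lowest point is tRNA-Phe-3-1-/- replicate C and the rest scatter.

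In a fit added after the data were seen, which left aside the 4 libraries highest in olfactory bulb, thalamus or hypothalamus markers (tRNA-Phe-1-1-/- replicate A, tRNA-Phe-2-1-/- replicate C and tRNA-Phe-3-1-/- replicates B and C), Gad2 and Slc32a1 passed in tRNA-Phe-1-1-/- against WT. There 2 of 9 members passed, against 3.58% of all genes. Gad2 was higher by 0.87 ± 0.16 (limma adjusted p = 0.036) and Slc32a1 by 0.87 ± 0.18 (limma adjusted p = 0.0456) on the log2 scale. The remaining tRNA-Phe-1-1-/- libraries, B and C, were those with 71881 and 71219 summed normalised counts of striatal markers, led by Pde10a and Scn4b, against 11528 to 39175 in WT. The library of that line left aside, replicate A, had 10689, the lowest striatal sum of all 12 brains. It also had the lowest Gad2 and Slc32a1 of its line. Striatal projection neurons also make GABA, and the part of these markers in the result was not tested. In bulk tissue, more cells of a type and more RNA per cell cannot be told apart, here or for any gene below. With all 12 libraries, 12 of 12 striatal markers had a higher mean log2 level than WT in each line, with median log2 differences of 0.63, 1.37 and 1.23, and 0 passed limma's test.

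Of the calcium buffers, Pvalb came closest to the threshold. Parvalbumin (ENSMUSG00000005716.16, chr15:78191112-78206400) is a buffer of fast-spiking basket and chandelier cells, among other neurons. It had 2075, 1349 and 1686 normalised counts in WT, 1022, 1089 and 763 in tRNA-Phe-1-1-/-, 1318, 886 and 1795 in tRNA-Phe-2-1-/-, and 747, 658 and 1227 in tRNA-Phe-3-1-/-. Every tRNA-Phe-3-1-/- and tRNA-Phe-1-1-/- sample was below every WT sample, whereas tRNA-Phe-2-1-/- overlapped WT. The log2 fold change was -0.82 ± 0.29 in tRNA-Phe-1-1-/- (0.565-fold, 95% interval 0.366 to 0.872, limma adjusted p = 0.19) and -0.99 ± 0.29 in tRNA-Phe-3-1-/- (0.504-fold, interval 0.326 to 0.778, limma adjusted p = 0.229). In tRNA-Phe-2-1-/- it was -0.39 ± 0.29 with a limma adjusted p of 0.938. The difference in tRNA-Phe-3-1-/- passed with DESeq2 (-0.95 on the log2 scale, adjusted p = 0.049) and did not with edgeR (adjusted p = 0.261). In DESeq2's test for any difference the adjusted p of Pvalb was 0.0355, against 0.211 in limma and 0.219 in edgeR. The 2 lines with low Pvalb differed from each other by 0.16 ± 0.29 on the log2 scale (95% interval -0.46 to 0.79, limma adjusted p = 0.792), or between 0.726-fold and 1.73-fold. In each genotype the replicate highest in thalamus markers was also the highest in Pvalb. Replicate C of tRNA-Phe-3-1-/-, with a thalamus sum of 31451, had less Pvalb than every WT sample. The part of these markers in the Pvalb level was not tested.

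Among 31 further genes of interneuron classes, 1 passed in tRNA-Phe-1-1-/- against WT and it was Syt2, a fast synaptic calcium sensor found in the terminals of parvalbumin cells. Syt2 fell by 1.12 ± 0.18 on the log2 scale (limma adjusted p = 0.0202), from 3481, 2217 and 2666 normalised counts in WT to 999, 1502 and 1324. In tRNA-Phe-3-1-/- it had 1081, 1214 and 1415 normalised counts, a log2 difference of -1.16 ± 0.18 that did not pass (limma adjusted p = 0.12), and in tRNA-Phe-2-1-/- 2172, 1943 and 2042. The call of Syt2 was lost without WT replicate A (limma adjusted p = 0.0525), WT replicate C (0.0798) or tRNA-Phe-1-1-/- replicate C (0.0712), and with just the compared groups in the fit (0.058). The log2 difference in these fits was -0.95 to -1.16. Of the 31 genes 12 had a higher and 19 a lower mean log2 level than WT in tRNA-Phe-1-1-/-, with a median log2 difference of -0.06 against 0.00 over all genes. In the other lines 0 passed, and the median was -0.06 in tRNA-Phe-2-1-/- and 0.07 in tRNA-Phe-3-1-/-. For oligodendrocyte markers, 12 of 12 had a lower mean log2 level than WT in each line, with median log2 differences of -0.98, -0.39 and -0.19. Of these markers 1 passed, in tRNA-Phe-1-1-/-. Their summed normalised counts were 131998 to 157372 in WT, 50053 to 95884 in tRNA-Phe-1-1-/-, 72645 to 174458 in tRNA-Phe-2-1-/- and 91049 to 192581 in tRNA-Phe-3-1-/-, and their part in the levels of Pvalb and Syt2 was not tested. The 2 genes whose levels followed Pvalb most closely over the 12 brains, of 13154 protein-coding genes with a mean of at least 50, were Vamp1 (r = 0.937), a synaptic vesicle protein, and Glrx (r = 0.923).

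**Figure D4:**
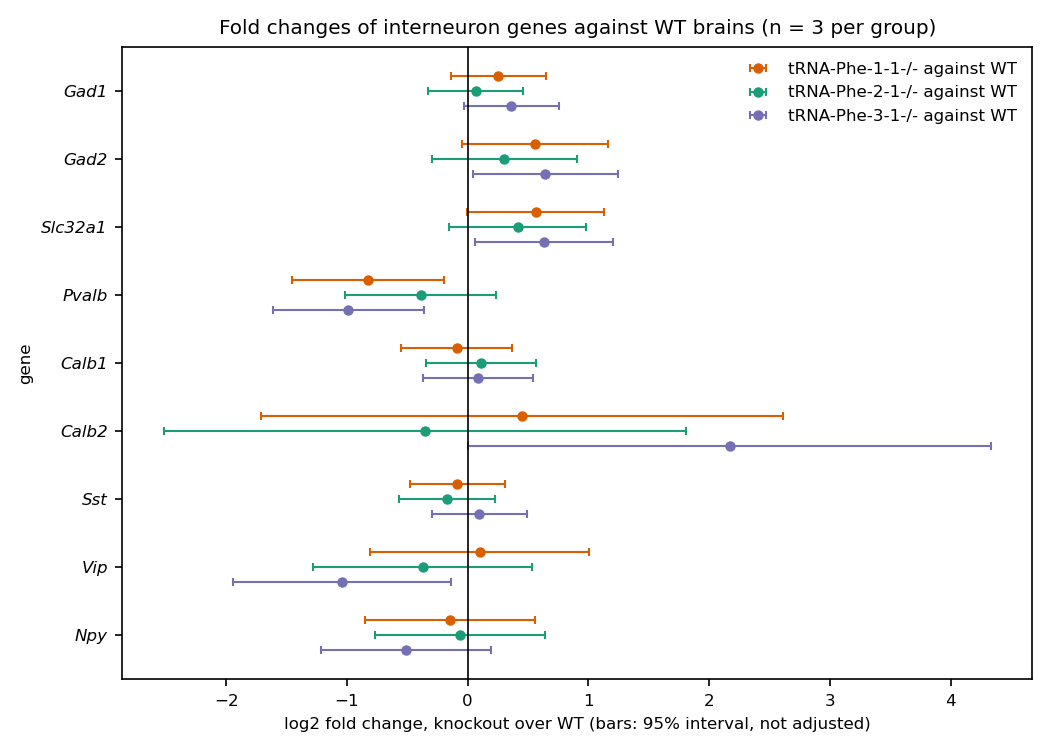
Log2 fold changes of the 9 genes in each knockout line against WT (x axis, limma on log2(normalised count + 1), n = 3 per group), with bars for unadjusted 95% intervals. Pvalb lies left of 0 in all 3 lines, at -0.82, -0.39 and -0.99, and the Calb2 intervals are the widest.

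Calb1, calbindin (ENSMUSG00000028222.2, chr4:15881264-15906709), is found in Purkinje cells, in many striatal neurons and in subsets of cortical interneurons. Its normalised counts were 3951, 3734 and 4457 in WT, 3707, 3867 and 3784 in tRNA-Phe-1-1-/-, 5031, 4239 and 3874 in tRNA-Phe-2-1-/-, and 5296, 2783 and 5333 in tRNA-Phe-3-1-/-. The groups overlapped in every comparison with WT. The tightly grouped tRNA-Phe-1-1-/- samples lay wholly below the tRNA-Phe-2-1-/- samples, by a narrow margin (3867 against 3874). That log2 difference was -0.20 ± 0.21, with a limma adjusted p of 0.718. In tRNA-Phe-1-1-/- against WT the log2 fold change was -0.09 ± 0.21, with a 95% interval of -0.55 to 0.37 and a limma adjusted p of 0.868. In the other lines it was 0.11 ± 0.21 and 0.09 ± 0.21, with limma adjusted p of 0.983 and 0.901. The low sample, tRNA-Phe-3-1-/- replicate B, was the one highest in Gad1.

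Calb2, calretinin (ENSMUSG00000003657.9, chr8:110142526-110168212), marks a class of cortical interneurons and is also abundant in the olfactory bulb and in parts of the thalamus and hypothalamus. It was the most variable member, with 759, 215 and 351 normalised counts in WT, 1674, 230 and 381 in tRNA-Phe-1-1-/-, 133, 145 and 1406 in tRNA-Phe-2-1-/-, and 730, 1999 and 3586 in tRNA-Phe-3-1-/-. Replicates of one genotype thus differed by 3.54-fold in WT, 7.29-fold in tRNA-Phe-1-1-/-, 10.5-fold in tRNA-Phe-2-1-/- and 4.92-fold in tRNA-Phe-3-1-/-, and all groups overlapped. Its coefficient of variation over the 12 brains was 108%, higher than that of 99.4% of the 15157 genes with a mean of at least 50. The 4 samples highest in Calb2 were libraries that stood apart in regional markers: tRNA-Phe-1-1-/- replicate A and tRNA-Phe-3-1-/- replicate B in those of the olfactory bulb, and the C replicates of tRNA-Phe-3-1-/- and tRNA-Phe-2-1-/- in those of the thalamus. The WT sample highest in Calb2, replicate A, was likewise the WT sample highest in both lists, at 9747 and 18488 summed normalised counts, and the part of these tissues in the Calb2 levels was not tested.

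**Figure D5:**
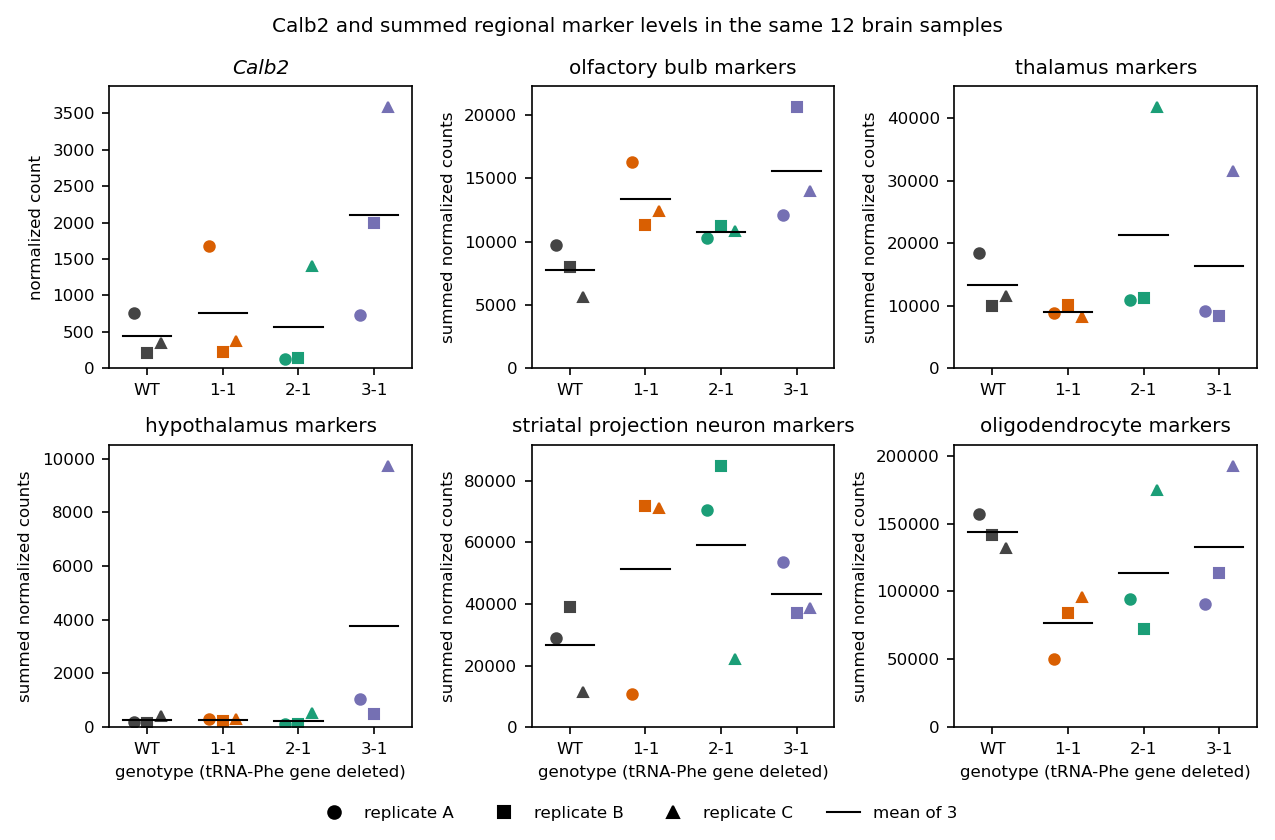
Normalised counts of Calb2 and summed normalised counts of 5 marker lists (y axes, from 0) in the same 12 brain samples, by genotype (x axis), with symbols for replicates and lines for means of 3. The 4 highest Calb2 values, 1406 to 3586, belong to the libraries highest in olfactory bulb or thalamus markers.

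The log2 fold change of Calb2 in tRNA-Phe-3-1-/- against WT was 2.17 ± 0.98, or 4.50-fold with a 95% interval of 1.00 to 20.1 and a limma adjusted p of 0.404. It was 1.65 without tRNA-Phe-3-1-/- replicate C, 2.79 without replicate A and 0.92 ± 0.59 with the 4 libraries left aside, where tRNA-Phe-3-1-/- kept replicate A alone. In tRNA-Phe-1-1-/- the value was 0.45 ± 0.98 (limma adjusted p = 0.863), -0.38 without replicate A and 1.05 without replicate B. In tRNA-Phe-2-1-/- it was -0.35 ± 0.98 (limma adjusted p = 0.99), -1.46 without replicate C and 0.23 without replicate A. These intervals, wider than 4 log2 units, leave changes of Calb2 RNA of severalfold in either direction undetectable in tRNA-Phe-1-1-/- and tRNA-Phe-2-1-/-.

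Other phenylalanine-rich and calcium-binding genes gave few calls. The study named 5 phenylalanine-rich genes, Calb1, Calb2, Slc32a1, Ncald and Capza1, for lower protein levels in tRNA-Phe-1-1-/- brains. It also reported that many proteins changed there with no matching change in RNA. Protein was not measured here, and as RNA 0 of these 5 passed against WT in any line. That list was drawn from work on the same mouse lines and is not independent. Its median log2 differences were 0.05, -0.02 and 0.14. Ncald (neurocalcin delta, 14 phenylalanines in 193 residues, 7.25%) had log2 differences of -0.07 ± 0.18, -0.21 ± 0.18 and -0.27 ± 0.18 in tRNA-Phe-1-1-/-, in tRNA-Phe-2-1-/- and in tRNA-Phe-3-1-/-. Capza1, a subunit of the actin capping protein (5.24%), had 0.05 ± 0.16, -0.02 ± 0.16 and 0.14 ± 0.16. Of 509 tested genes whose proteins held at least 7% phenylalanine 7 passed in tRNA-Phe-1-1-/- against WT (1.38%), 5 higher and 2 lower, against 168 of 14588 (1.15%) for all these proteins. Their median log2 differences from WT were 0.00, -0.01 and 0.01 in the lines, against 0.01, -0.01 and 0.01 for all. Among 31 tested EF-hand genes other than the members, Ncs1 (neuronal calcium sensor 1) rose in tRNA-Phe-1-1-/- by 0.42 ± 0.07 on the log2 scale (limma adjusted p = 0.0318), from 8027, 8048 and 7944 normalised counts in WT to 10585, 10227 and 11286. That call was lost when any WT or tRNA-Phe-1-1-/- sample was left out (limma adjusted p of 0.0565 to 0.133), with no filter on low values (0.0549), with quantile normalisation (0.0921) and with no variance trend (0.0638). The log2 difference in these fits was 0.38 to 0.45. In the other lines 0 of the 31 passed, and the medians of the list were 0.06, 0.00 and -0.04 in the order of the lines above.

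The last 3 members are peptide genes of interneurons. Sst, somatostatin (ENSMUSG00000004366.4, chr16:23889573-23891342), was the steadiest, with 1642, 1728 and 1821 normalised counts in WT, 1415, 1716 and 1777 in tRNA-Phe-1-1-/-, 1797, 1735 and 1162 in tRNA-Phe-2-1-/-, and 2325, 1738 and 1558 in tRNA-Phe-3-1-/-. All lines overlapped WT. The log2 fold changes were -0.09 ± 0.18, -0.17 ± 0.18 and 0.10 ± 0.18 (limma adjusted p of 0.855, 0.963 and 0.871), and each turned its sign when a single library was left out.

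Vip, a peptide of interneurons that inhibit other interneurons (ENSMUSG00000019772.5, chr10:5639193-5647617), had 966, 1135 and 1187 normalised counts in WT, 1589, 1139 and 887 in tRNA-Phe-1-1-/-, 1154, 880 and 589 in tRNA-Phe-2-1-/-, and 725, 844 and 243 in tRNA-Phe-3-1-/-. The tRNA-Phe-3-1-/- samples lay below all WT and all tRNA-Phe-1-1-/- samples, while the other lines overlapped WT. Against WT the difference was -1.04 ± 0.41 on the log2 scale (0.486-fold, limma adjusted p = 0.341) and ranged from -1.38 without replicate B to -0.48 without replicate C, the library with 243. Against tRNA-Phe-1-1-/- the lower level of tRNA-Phe-3-1-/- was also short of the threshold, with tRNA-Phe-1-1-/- higher by 1.14 ± 0.41 (limma adjusted p = 0.16). Replicate C had 30955 summed normalised counts of cortical and hippocampal excitatory markers, led by Camk2a, Slc17a7 and Nptxr, against 53090 to 82083 in the other 11 brains, and the part of this in the Vip level was not tested.

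Npy, neuropeptide Y (ENSMUSG00000029819.6, chr6:49822710-49829507), is made by somatostatin and neurogliaform interneurons of the cortex. It had 1282, 1678 and 1527 normalised counts in WT, 1420, 1340 and 1284 in tRNA-Phe-1-1-/-, 1752, 1315 and 1248 in tRNA-Phe-2-1-/-, and 1315, 1617 and 533 in tRNA-Phe-3-1-/-. The same library, tRNA-Phe-3-1-/- replicate C, held the lowest Vip and the lowest Npy, and every group overlapped WT. The log2 difference of tRNA-Phe-3-1-/- from WT was -0.51 ± 0.32 (limma adjusted p = 0.556), -0.03 without that library and -0.83 without replicate B. In tRNA-Phe-1-1-/- and tRNA-Phe-2-1-/- it was -0.14 ± 0.32 and -0.06 ± 0.32 (limma adjusted p of 0.867 and 0.995).

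The lists of genes that act with the members in GABA signalling, development and peptide reception gave no call against WT. Of 21 genes of GABA uptake, breakdown and reception 0 passed against WT in any line, with median log2 differences of 0.06, 0.01 and 0.04. The lowest unadjusted p in tRNA-Phe-1-1-/- belonged to Best1, an anion channel of astrocytes, at -0.96 ± 0.38 (limma adjusted p = 0.246). Of 23 tested interneuron transcription factors 0 passed against WT in any line, with 15 higher and 8 lower in each and median log2 differences of 0.13, 0.15 and 0.35. Dlx6, which directs development of forebrain GABA neurons, was higher in all 9 knockout samples (99 to 256 normalised counts) than in WT (55 to 78), at 1.55 ± 0.32 with a limma adjusted p of 0.0506 in tRNA-Phe-1-1-/-. In single lines 25.2%, 11.4% and 16.4% of all genes lay wholly above or below WT. The share for all 9 knockout samples at once was not counted, and the lines share the same WT brains. The libraries highest in Dlx6 (185 to 256) were tRNA-Phe-1-1-/- replicates B and C and tRNA-Phe-2-1-/- replicates A and B. These libraries were also the highest in striatal markers, whose part in the Dlx6 level was not tested. Satb1, needed for maturation of parvalbumin and somatostatin cells, was lower in tRNA-Phe-1-1-/- by a log2 difference of -0.94 ± 0.26 (limma adjusted p = 0.108). Of 10 neuropeptide receptors 0 passed in any line, with medians of -0.18, -0.16 and -0.26 and with Sstr2 at 0.60 ± 0.29 and Npy1r at -0.38 ± 0.22 in tRNA-Phe-1-1-/- (limma adjusted p of 0.345 and 0.43).

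The 2 protein-coding genes most like each of the other members in their log2 levels over the 12 brains were as follows. Gad1 was closest to 2610008E11Rik (r = 0.911) and Fam184a (0.893), Gad2 to Cartpt (0.930) and Pde1c (0.930), and Slc32a1 to Dchs2 (0.943) and Spint1 (0.934). For Calb1 they were Tm9sf2 (0.881) and Etfb (0.850), and for Calb2 Cep112 (0.938) and Epb41l4a (0.934). Sst was closest to Gpr85 (0.939) and Nxph2 (0.911), Vip to Epop (0.984) and Igfbp6 (0.982), and Npy to Ipcef1 (0.983) and Stx1a (0.957). Each r is over the same 12 libraries, which share their regional make-up, and is given as a description.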

How the data were processed

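Total RNA of 24 mouse samples (12 brain, 12 liver) was sequenced. Reads had been trimmed (Trim Galore, cutadapt), aligned to GRCm38.p6 (STAR), quantified with Salmon and summed per gene by the authors, according to their methods. The deposited tables hold normalised counts (a signal), read estimates that the authors divided by DESeq2 size factors in each tissue. The authors' tables of comparisons (fold changes and s-values) were not used. Groups came from the sample titles. Every value was a whole multiple of its column's step, so that 100% of values gave whole reads (tolerance 0.01 of a step), 30365760 to 46225360 per brain.

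The test was limma 3.58.1 (R 4.3.3) with a variance trend, applied to the logarithm to base 2 of each normalised count plus 1, over the 12 brains and genes with a mean of at least 10, two-sided, with Benjamini-Hochberg adjustment over all 19228 genes. These fold changes understate those of low genes. edgeR 4.0.16 and DESeq2 1.42.0 on the recovered reads, and a fit without 4 libraries, were added after the data were seen. Other alternatives changed the pseudocount, the filter, the scaling, the variance trend, the samples in the fit or the replicate block, or left out 1 library. The count tools passed 187 (edgeR) and 874 (DESeq2) genes in tRNA-Phe-1-1-/- against WT, where limma passed 202. With 3 samples against 3, an exact permutation test cannot give a p under 0.1. The limma, edgeR and DESeq2 fits were tested on simulated counts that had the same spread setting for every gene. The other steps were not tested in this way. Precision is set by 3 samples a group; replicates differed beyond sampling noise.

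The members and gene lists were chosen with earlier results of these data known. Genes named besides the members were those of 6 related lists past the threshold against WT, or the 2 lowest unadjusted p in tRNA-Phe-1-1-/- of a list with none, the 2 genes most correlated with each member, and the 3 highest genes of a marker list. Doc2g and Pcp2 were chosen outside this rule, after their values were seen. Capzb, entered by mistake among the EF-hand genes, was removed after its values were seen. Symbols came from GENCODE vM39 (93.2% of Ensembl identifiers matched), as did canonical transcripts, lengths and coding sequences, and positions from RefSeq for GRCm38.p6. Correlations used 100000 permutations. Every same-lettered pair deviated together (r of 0.13, 0.21 and 0.49 across genes) only between tRNA-Phe-3-1-/- and tRNA-Phe-2-1-/-. Pairs of unlike letter reached an r of 0.26 there. The labels do not say that a letter marks a shared litter or day. Some genes of the lists and the sequences of the members are not reported here.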

Additional observations from a re-analysis of the deposited data

Results flagged for a closer look

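Calb1 had 5 reads in the liver of tRNA-Phe-3-1-/- replicate B, above the 3 reads that a count of 0 allows and above every WT liver. Livers were not part of the comparisons. The 12 livers together held 8 Calb1 reads, in 4 samples, and the value in normalised counts was 5.63. No group holds more than 3 samples, too few to test for outlying samples.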

How the results depend on the processing

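Each member count was recomputed under 24 alternatives (23 for the test of any difference), and 164 of 167 counts remained 0. The exceptions were DESeq2, which gave 1 in tRNA-Phe-3-1-/- against WT and 1 for any difference, and the fit without the 4 libraries, which gave 2 in tRNA-Phe-1-1-/- against WT. With the replicate block the counts were 0 in all comparisons, tRNA-Phe-2-1-/- against tRNA-Phe-3-1-/- included. The labels give no pairing by letter. Only in that comparison was the correlation of every same-lettered pair over 0.1, and samples of unlike letter correlated there too. Replicate A of tRNA-Phe-2-1-/- and replicate B of tRNA-Phe-3-1-/- had r = 0.26, above the same-lettered pairs A and B. The block changed no member call and moved the count for any difference over all genes from 122 to 66. Leaving out 1 library kept every member count at 0.

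Of 648 alternative log2 fold changes of members against WT, 628 kept their direction. Leaving out 1 library gave ranges across 0 for Sst (-0.15 to 0.0142), Vip (-0.12 to 0.30) and Calb2 (-0.38 to 1.05) in tRNA-Phe-1-1-/-, for Gad1 (-0.0064 to 0.19), Sst (-0.28 to 0.0304), Npy (-0.215 to 0.0299) and Calb2 (-1.46 to 0.23) in tRNA-Phe-2-1-/-, and for Sst (-0.0713 to 0.22) and Calb1 (-0.0722 to 0.40) in tRNA-Phe-3-1-/-. Without the 4 libraries the values turned to 0.0142 for Sst, -0.12 for Vip and -0.38 for Calb2 in tRNA-Phe-1-1-/-, and to 0.0304 for Sst and 0.0299 for Npy in tRNA-Phe-2-1-/-. Calb2 in tRNA-Phe-2-1-/- was 0.36 with edgeR and 0.35 with DESeq2. The cause was not tested.

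Counts over all genes moved more. In limma they were 202, 0 and 0 against WT in the lines in order, 102, 406 and 0 between the lines (tRNA-Phe-1-1-/- against tRNA-Phe-2-1-/-, tRNA-Phe-1-1-/- against tRNA-Phe-3-1-/-, tRNA-Phe-2-1-/- against tRNA-Phe-3-1-/-) and 122 for any difference. In the same order they were 95, 1, 1, 84, 222, 0 and 71 with no filter on low values, 103, 0, 0, 62, 236, 1 and 49 with no variance trend, 874, 19, 372, 673, 1301, 166 and 1582 with DESeq2, and 689, 0, 1, 46, 7, 1 and 53 without the 4 libraries. With the compared groups alone in the fit they were 151, 0, 0, 6, 5 and 6. Leaving out 1 library gave 5 to 248, 0, 0 to 75, 11 to 151, 48 to 411, 0 to 2, and 3 to 177. Whether depth limited the members was not tested.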
